A study of Danio rerio with 12 samples.

Results

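The zebrafish genes described here carry a symbol made of znf and a number, the name given to proteins recognised by a zinc finger and not, or not yet, named for what they do. They were chosen from the gene symbols alone, by the letters znf followed by a digit in both expression tables, which gave 75 genes of the 14850 listed. The symbol pattern uses no measured value, but the genes and the lists below were chosen with earlier results of these data known.

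Zinc fingers are short protein folds held together by a zinc ion, and the commonest kind, the C2H2 finger, binds a few bases of DNA or sometimes RNA. Proteins with long rows of such fingers form one of the largest groups of vertebrate transcription factors. In fish many of them lie in clusters of near-identical copies, whereas others are single, old genes that act in transcription, chromatin, ribosome control or the mitotic spindle. The early embryo first lives on transcripts laid down in the egg and later replaces them with its own.

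The study asked what the TALE transcription factors Prep and Pbx do in the early zebrafish embryo. RNA was sequenced from pools of whole Ekwill embryos at 6hpf (hours post-fertilization), during gastrulation, and at 12hpf, during early segmentation. TALE KD embryos had received morpholinos, synthetic oligonucleotides that block an mRNA, against prep1.1, pbx2 and pbx4 together with phenol red dye, and control embryos the dye in water, so that no control morpholino was injected. Each of the 4 groups (control and TALE KD at 6hpf and at 12hpf) had 3 libraries, labelled as biological replicates.

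The deposited values were RSEM's estimated counts per gene, summing to between 11884808 and 15031222 per library at 6hpf and between 19783332 and 40924971 at 12hpf. They were scaled to library size with TMM factors and are given as CPM, a scale on which 1 count was worth 0.0222 to 0.0904 depending on the library. The TMM factors were 0.912 to 0.944 in the libraries of 6hpf and 1.06 to 1.10 in those of 12hpf. A CPM value depends on transcript length, so where CPM of different genes are summed or put in order they stand for reads taken and not for numbers of transcripts. At 12hpf replicate 3 of both groups stood apart from the other libraries of its group, by a chi-square of their counts (13.0 to 24.6 per degree of freedom where it was one of the pair compared, 2.68 and 3.19 between the remaining pairs). Pairs within a group at 6hpf gave 7.26 to 16.5, a range that takes in the lower of these values for replicate 3. The stage labels were checked on marker genes. In control embryos 6 of 6 gastrula genes fell from 6hpf to 12hpf and 8 of 9 segmentation genes rose, the exception being the oscillating gene her7, and 5 of 5 germ cell genes fell. The hindbrain gene egr2b, which depends on TALE factors, averaged 52.8 CPM in control embryos at 12hpf and 0.887 CPM after TALE KD. At 12hpf the summed gastrula genes held 332.8 to 363.5 CPM in control and 377.8 to 420.2 CPM in TALE KD embryos. The summed segmentation genes held 500.6 to 530.9 and 387.6 to 414.9 CPM, although her7 and pax2a averaged higher after TALE KD. The part of a difference in stage in the TALE KD comparisons was not tested. In whole embryos a lower value cannot be told apart into fewer cells with a transcript and less of it per cell.

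Most znf genes were measured well enough to be compared. Of the 75, 71 averaged 10 counts or more across the 12 libraries. The 4 that did not were znf219, znf385b, znf804a and znf831, whose highest count in any library was 19, 11, 11 and 4. Over the 6 libraries of a stage, 67 passed at 6hpf and 71 at 12hpf. At 6hpf znf296, znf362b, znf516 and znf692 also fell short, and at 12hpf znf326 fell short while znf219 passed.

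The 75 genes together had a lower summed CPM, scaled by TMM, at the later stage. Their summed level was 5309 ± 265 CPM in control and 5352 ± 74.3 CPM in TALE KD embryos at 6hpf (mean ± SD, n = 3 each). At 12hpf it was 3314 ± 91.1 CPM in control and 3580 ± 64.2 CPM in TALE KD embryos. All 6 libraries at 6hpf lay above all 6 at 12hpf. The TMM factors were lower at 6hpf than at 12hpf, which widens the difference between the stages in every sum given here. Sums scaled to library totals were not compared. A few genes made up much of these sums. In CPM averaged over the 12 libraries of both stages, znf185, which encodes an actin-binding protein with a LIM domain rather than C2H2 fingers, had 531.6, and znf346, znf281b, znf207a, znf395a and znf576.2 had 375, 320.4, 315, 257 and 162. This order pools the stages and held at neither: in control embryos znf395a averaged 373 CPM against 361 for znf207a at 6hpf, and znf207a 237 CPM against 214 for znf346 at 12hpf.

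The sum hid a division by name. Symbols numbered 900 or over, 20 of the 75, are the ones given to zebrafish zinc finger genes with no human namesake. Their summed level in control embryos was 980.5 to 1042 CPM at 6hpf and 378 to 401 CPM at 12hpf, a ratio of means of 2.60. For the 55 genes numbered under 900 it was 3964 to 4464 CPM at 6hpf and 2832 to 2975 CPM at 12hpf, a ratio of 1.47. In TALE KD embryos the ratios were 2.12 and 1.41. The sum of the 55 follows its highest genes more than the typical one. In control embryos znf185 averaged 686 CPM at 6hpf and 306 CPM at 12hpf, and znf346 averaged 527 and 214 CPM. By the test given below, 15 of the 51 tested genes numbered under 900 rose and 12 fell. Their median log2 fold-change was 0.10.

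**Figure D1:**
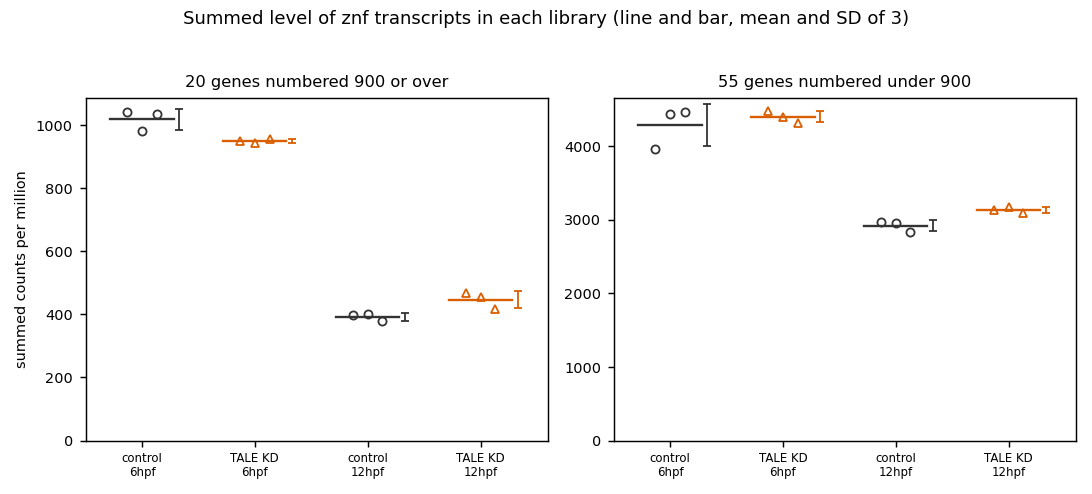
Summed level in CPM of the 20 znf genes numbered 900 or over (left) and of the 55 numbered under 900 (right) in each library, by group (circles, control; triangles, TALE KD; horizontal lines, means of 3 libraries; bars, SD). With TMM scaling both sums are lower in every library at 12hpf than in any at 6hpf. The drop in control embryos is 2.60-fold on the left and 1.47-fold on the right, where a few high genes hold much of the sum.

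To ask which znf transcripts changed between gastrulation and segmentation, control embryos at 12hpf were compared with control embryos at 6hpf, with all 12 libraries in one edgeR quasi-likelihood fit. A gene was called when its Benjamini-Hochberg adjusted p, over all 11450 genes tested, was at most 0.01 and its fold-change at least 1.5. Of the 71 znf genes tested 43 were called, 15 higher and 28 lower at 12hpf. Over all genes 58.8% were called, 32.8% higher and 26% lower, so that the znf genes moved about as often as other genes but more of them downward (21.1% higher, 39.4% lower). Their median log2 fold-change was -0.31, against 0.09 over all genes. The control libraries of the stages did not overlap for 23 znf genes that were higher and 34 that were lower. Over all 11450 genes they did not overlap for 5076 higher and 4182 lower, so separate stages were common to most genes. The stages were deposited as separate tables, so stage and table cannot be told apart. Scaling to library totals in place of TMM shifted the median of all genes by 0.24 on the log2 scale, and the split of the znf calls then became 21 higher and 22 lower. Such a change of scaling moves all genes by nearly the same amount. The znf median relative to that of all genes (-0.40 with TMM, -0.39 with totals) could therefore hardly change, and it does not test the scaling.

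Genes numbered 900 or over accounted for most of the calls downward. Of these 20 genes 16 fell, 0 rose and 4 were not called (znf1014, znf1024, znf1070 and znf971), and the median log2 fold-change was -1.20 (with library totals 14 fell and 1 rose, median -0.96). Among the 51 tested genes numbered under 900, 15 rose and 12 fell, with a median of 0.10. A separate list of C2H2 zinc finger genes with other names, such as the klf, zbtb, zic and sall families, had 44 higher and 28 lower of 114 tested, with a median of 0.18.

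The steepest falls in this list were those of znf1147 and znf1041. In control embryos znf1041 stood at 143.5, 134.1 and 150.2 CPM at 6hpf and at 26.7, 26.4 and 26.3 CPM at 12hpf. For znf1147 the control levels were 68.2, 55.6 and 59.9 CPM at 6hpf and 12.0, 10.5 and 11.5 CPM at 12hpf. In both genes the stages were far apart, and each fell by 2.46 on the log2 scale (SE 0.07 and 0.10, edgeR adjusted p = 1.83e-12 and 5.08e-11). Next came znf1137, which fell by 1.75 on the log2 scale, then znf1077 by 1.74, znf1001 by 1.57, znf973 by 1.48 and znf1051 by 1.43. The closest to an increase was znf1024, at 9.53, 8.64 and 11.8 CPM at 6hpf and 16.8, 14.2 and 13.5 CPM at 12hpf. Its groups did not overlap, but its log2 fold-change of 0.54 (SE 0.14, edgeR adjusted p = 0.00238) was below 1.5-fold, and it passed with library totals and without control replicate 3 of either stage.

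The values of this list include reads that were shared out between genes, in a proportion that the deposited counts do not give. RSEM divides a read that matches several genes among them, which leaves values that are not whole numbers. For 17 of the 20 genes fewer than 6 of the 12 deposited values were whole (within 0.005), and for 0 of 20 were all 12 whole, against 18 of all 75 znf genes and 44.4% of all genes. Among the 17, 15 fell, with a median log2 fold-change of -1.30. The remaining 3 were znf1014, znf1015 and znf971, with a median of 0.02, of which znf1015 alone fell (log2 fold-change -0.90, SE 0.17, edgeR adjusted p = 0.000244). The same division ran through the other znf genes: of the 9 tested genes numbered under 900 with fewer than 6 whole values 6 fell and 0 rose, and of the other 42, 6 fell and 15 rose. Over all genes tested, 40.1% of those with fewer than 6 whole values fell, and 22.1% of the others. Highly counted genes have fewer whole values: over all genes tested the median was 2806 counts with fewer than 6 whole values and 307 with more. For the 17 genes of this list the median was 565 counts, and for the remaining 3 it was 202. The part of shared reads in the falls was not tested.

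Most of these genes that could be placed in the genome lay on the same chromosome, which their symbols do not show. Of the 20, 17 could be placed by RefSeq accession or symbol on the GRCz12tu assembly, and 11 of those lay on a single chromosome, which held 1 of the 55 znf genes numbered under 900. That chromosome was picked as the one that held most of the list, and the share of all genes on it was not counted. Other genes fell over the same libraries, among them 6 of 6 gastrula genes and 5 of 5 germ cell genes. Of 5 enveloping layer genes 3 rose and 1 fell (edgeR adjusted p of at most 0.01). The summed level of the 5 germ cell markers was 298 to 337 CPM at 6hpf and 26.4 to 35.8 CPM at 12hpf in control embryos. The part of any of these cells in the change of the znf genes was not tested.

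**Figure D2:**
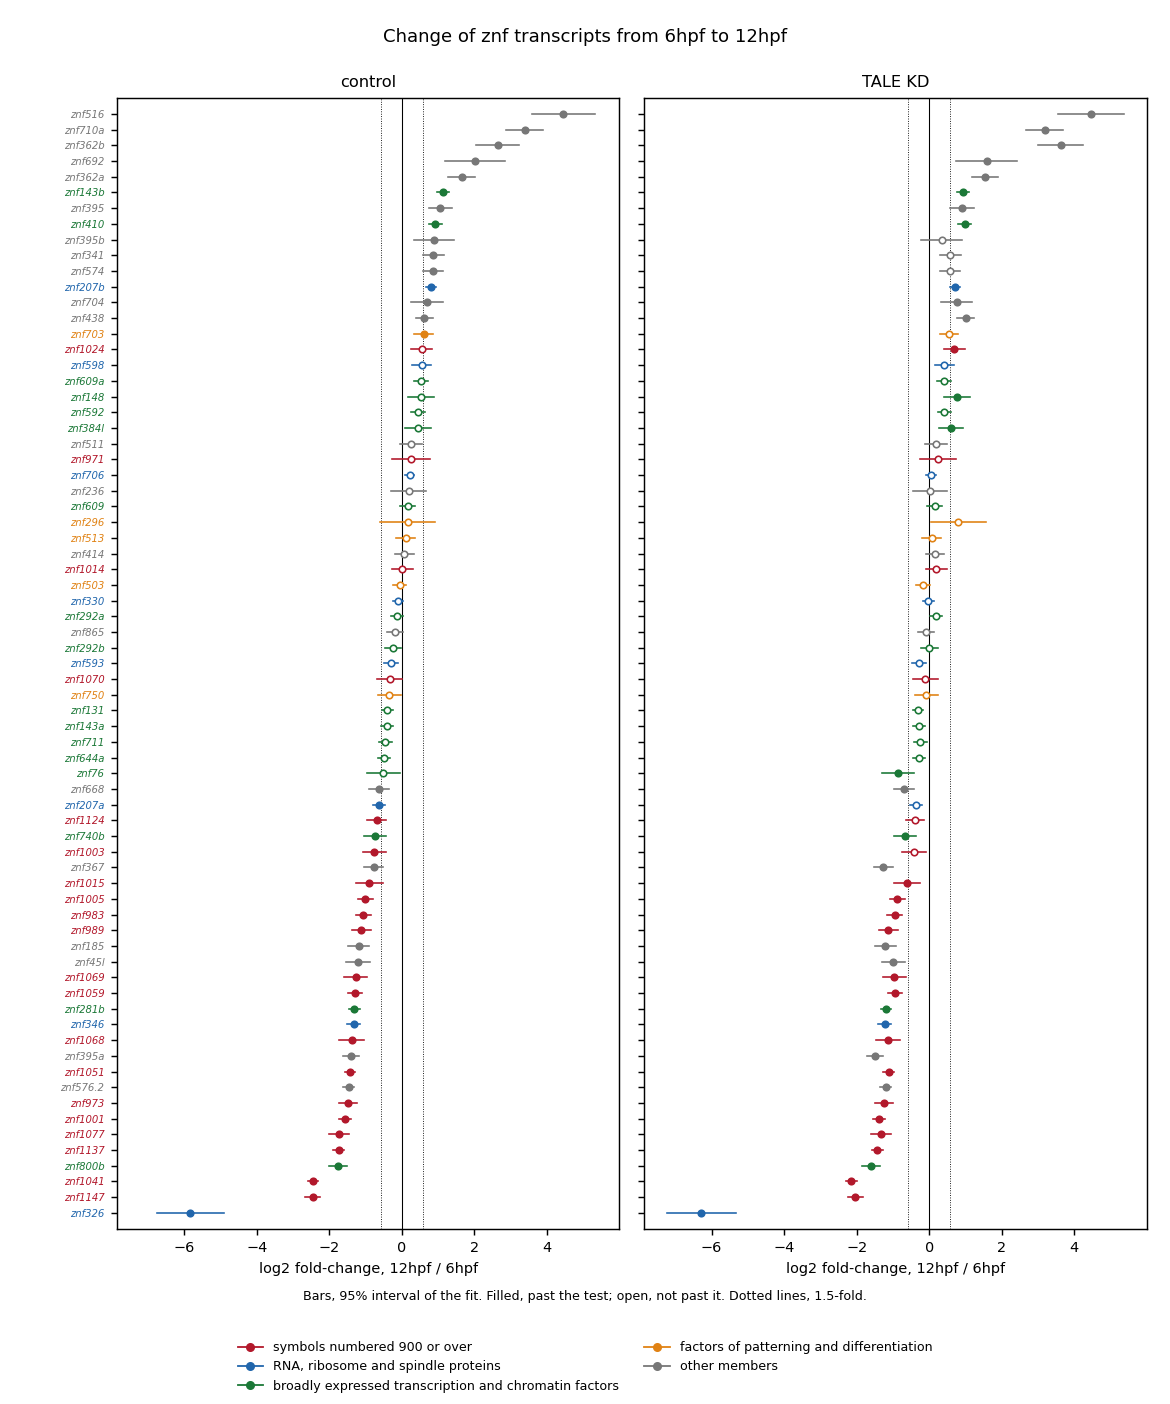
Log2 fold-change from 6hpf to 12hpf (horizontal axis) of the 71 znf genes tested, in control (left) and TALE KD embryos (right), sorted by the change in control and coloured by list; bars are 95% intervals of the edgeR fit, filled points passed the test and dotted lines mark 1.5-fold. With TMM scaling the 16 filled red points on the left all lie below 0, whereas the largest rises belong to the grey group, and the order on the right is much the same.

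Of the 9 genes whose proteins act on RNA, ribosomes or the spindle, 8 were tested, and 1 rose and 3 fell. These are 12.5% and 37.5% of the 8, against 32.8% and 26% of all genes. The largest fall of any znf gene was that of znf326, whose human counterpart sits in a complex that couples splicing to transcription. Control embryos held 81, 75 and 88 counts of it at 6hpf (6.43, 5.36 and 6.81 CPM) and 1, 4 and 3 counts at 12hpf (0.0377, 0.155 and 0.126 CPM). The transcript was near the limit of detection at 12hpf in every library. The ratio of 6hpf to 12hpf over the summed, scaled counts was 58.8, with an exact 95% interval of 29.4 to 138 that covers counting error only. In TALE KD embryos the counts went from 42, 97 and 61 to 1, 2 and 4.

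Also lower was znf346, whose protein binds double-stranded RNA in human and mouse cells. It went from 540.2, 522 and 518 CPM at 6hpf to 231, 224 and 188 CPM at 12hpf in control embryos, a log2 fold-change of -1.33 (SE 0.08, edgeR adjusted p = 3.49e-09). Every library at 12hpf lay far below those at 6hpf. None of its 12 values was whole.

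The genes znf207a and znf207b are the fish copies of ZNF207, whose product in human cells loads the checkpoint protein BUB3 onto chromosomes and binds spindle microtubules. They moved in opposite directions. In control embryos znf207a stood at 370.5, 343 and 369 CPM at 6hpf and at 253, 239.6 and 219.5 CPM at 12hpf, a log2 fold-change of -0.63 (SE 0.07, edgeR adjusted p = 2.26e-06), whereas znf207b went from 98.1, 106.9 and 99.0 CPM up to 179, 178 and 186 CPM, a log2 fold-change of 0.81 (SE 0.06, edgeR adjusted p = 3.45e-08). Neither copy's stages overlapped. The fall of znf207a was just past 1.5-fold, and its call was lost with library totals (log2 fold-change -0.39) and without control replicate 3 at 12hpf (-0.58), while its direction was kept in both.

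The other tested genes of this list were not called. Levels of znf598, which encodes the ubiquitin ligase that marks collided ribosomes in human cells, were 54.2, 59.8 and 42.0 CPM at 6hpf and 73.7, 70.8 and 87.2 CPM at 12hpf. They did not overlap, at a log2 fold-change of 0.54 (SE 0.12, edgeR adjusted p = 0.000822) that was called with library totals (0.78) and without control replicate 2 at 6hpf (0.65) or at 12hpf (0.61), but not with TMM over all libraries. For znf593, the relative of a yeast factor of large ribosomal subunit export, the log2 fold-change was -0.31 (SE 0.09). The nucleolar gene znf330 stayed between 55.6 and 63.5 CPM in all 6 control libraries, and its stages overlapped. The small gene znf706 was higher in each control library at 12hpf (57.4 to 58.6 CPM) than in any at 6hpf (47.2 to 50.4 CPM), at a log2 fold-change of 0.21 (edgeR adjusted p = 0.00736) that was below 1.5-fold. At most 11 counts per library were recorded for znf385b.

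Of the 17 broadly expressed transcription and chromatin factors 2 rose and 3 fell. These are 11.8% and 17.6%, against 32.8% and 26% of all genes, so the list was called less often than genes at large. The gene znf281b, related to a mouse gene of the stem cell regulatory network, fell from 415, 479 and 470.5 CPM to 191, 188 and 183 CPM, a log2 fold-change of -1.31 (SE 0.07, edgeR adjusted p = 4.41e-10), with 1 of 12 values whole. For znf800b the levels were 73.6, 61.9 and 51.0 CPM at 6hpf and 19.2, 18.8 and 18.2 CPM at 12hpf, a log2 fold-change of -1.76 (SE 0.12, edgeR adjusted p = 1.03e-08). No library of either gene crossed over to the other stage. The remaining gene to fall was znf740b, at 84.3, 89.3 and 55.3 CPM and then 47.6, 45.2 and 46.3 CPM, whose log2 fold-change of -0.75 (SE 0.14) shrank to -0.51 and lost its call with library totals.

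The risers of this list were znf143b and znf410. The first is a copy of ZNF143, an activator of small nuclear RNA genes and of many housekeeping promoters, and it rose from 25.6, 23.2 and 21.8 CPM to 51.7, 52.9 and 53.4 CPM (log2 fold-change 1.13, SE 0.08, edgeR adjusted p = 7.96e-09). Its partner znf143a went the other way by less than 1.5-fold and was not called, from 72.7, 65.9 and 75.7 CPM to 57.3, 52.6 and 55.3 CPM, at a log2 fold-change of -0.41 (SE 0.08). The stages were separate for both copies. The second riser, znf410, whose human counterpart is known for switching on the chromatin remodeller gene CHD4, rose from 11.0, 10.7 and 11.0 CPM to 20.4, 20.5 and 22.3 CPM (log2 fold-change 0.92, SE 0.09, edgeR adjusted p = 3.02e-07).

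Further members differed between the stages by less than 1.5-fold and were not called. Lower log2 levels at 12hpf, with no overlap, were measured for znf644a (-0.49), whose human counterpart works with the histone methyltransferase G9a, for znf711 (-0.46), related to a human gene of X-linked intellectual disability, and for the BTB domain gene znf131 (-0.40). Higher log2 levels were measured for znf609a (0.53) and znf592 (0.45), and these passed 1.5-fold with library totals (0.77 and 0.69). The copies znf292a and znf292b stood at 120 to 147 CPM and 109 to 154 CPM in control embryos at 6hpf and at 118 to 129 CPM and 109 to 119 CPM at 12hpf, and in both the stages overlapped. The rest of the list, znf148, znf384l, znf609 and znf76, was not called in control embryos. Of these znf148 (log2 fold-change 0.52, edgeR adjusted p = 0.0112) and znf384l (0.45, edgeR adjusted p = 0.0215) were higher at 12hpf without overlap. By accession, znf384l is now named znf384a and znf609 is named znf609b, the partner of znf609a.

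Of 7 genes tied to patterning or differentiation, 5 were tested, and 1 rose and 0 fell. Over all genes 32.8% rose and 26% fell. The gene that rose was znf703, which with znf503 forms a pair of corepressor-binding factors known in zebrafish for roles in the hindbrain and eye. It went from 60.9, 92.9 and 76.0 CPM at 6hpf to 128, 118 and 110.4 CPM at 12hpf, without overlap, at a log2 fold-change of 0.60 (SE 0.12, edgeR adjusted p = 0.00036). This lay at the edge of the fold limit: the call was lost with DESeq2 (log2 fold-change 0.58) and without control replicate 1 at 6hpf (0.46) or at 12hpf (0.55). Its partner znf503 stayed between 74.3 and 92.5 CPM in the 6 control libraries. The epidermal factor gene znf750 overlapped between the stages, at 31.0 to 49.2 CPM and 28.9 to 31.9 CPM, and znf513, named for a human retinal dystrophy gene and now listed as znf513a, held 8.91 to 11.5 CPM. The genes znf296, znf219 and znf804a were at or below 0.716 CPM in every control library.

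The remaining 22 genes fit none of these lists, and 21 were tested. They held most of the risers, 11 against 6 that fell. These are 52.4% and 28.6% of the 21, against 32.8% and 26% of all genes. The largest rise of any znf gene was that of znf516, a gene that in mouse activates the thermogenic programme of brown fat. It had 2, 4 and 1 counts at 6hpf and 94, 89 and 124 counts at 12hpf in control embryos, or 0.159, 0.286 and 0.0774 CPM against 3.54, 3.45 and 5.19 CPM. The ratio of the summed, scaled counts was 22.7, with an exact 95% counting interval of 10.9 to 57.0.

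A gene measured with more counts, znf710a, rose from 4.61, 5.07 and 3.10 CPM to 42.6, 40.5 and 54.1 CPM, a log2 fold-change of 3.39 (SE 0.23, edgeR adjusted p = 1.23e-08). The stages lay an order of magnitude apart. The copies znf362a and znf362b rose together, znf362a from 3.81, 4.00 and 3.41 CPM to 11.8, 13.1 and 10.9 CPM (log2 fold-change 1.64, SE 0.17) and znf362b from 6 counts in each library at 6hpf to 92, 61 and 70 counts (log2 fold-change 2.64, SE 0.27). The low gene znf692 rose from 5, 4 and 4 counts to 34, 34 and 37 counts (log2 fold-change 2.02, SE 0.38). Smaller rises were those of znf341, which in human cells activates STAT3 (log2 fold-change 0.87, SE 0.14), of znf574 (0.86, SE 0.12), of znf704 (0.70, SE 0.20) and of znf438. The call of znf704 was lost with DESeq2 (adjusted p = 0.0115), in a fit of the 6 control libraries alone (0.0192) and without any control library other than replicate 2 at 6hpf and replicate 3 at 12hpf, and that of znf438 without control replicate 1 at 6hpf (log2 fold-change 0.52) or at 12hpf (0.58).

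The copies of znf395 also diverged. The gene znf395a fell from 360.0, 334 and 424 CPM to 143.5, 144 and 146.5 CPM (log2 fold-change -1.39, SE 0.10, edgeR adjusted p = 2.43e-08). Its partner znf395b, a low gene, stood at 1.27, 1.36 and 1.39 CPM and then at 2.98, 2.52 and 2.09 CPM (log2 fold-change 0.89, SE 0.26, edgeR adjusted p = 0.00636). Both pairs of groups were separate, but the call of znf395b was lost with DESeq2 (0.87) and when any control library other than replicate 3 at 12hpf was left out (0.76 to 0.91). The row named znf395 is not another copy: its accession now belongs to fam49a, and it rose by a log2 fold-change of 1.06 (SE 0.15).

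The other genes that fell were znf185, znf576.2, znf45l, znf367 and znf668. The level of znf185 varied among the control libraries at 6hpf, at 489, 769.6 and 798.5 CPM, and was 308, 325 and 285 CPM at 12hpf, a log2 fold-change of -1.19 (SE 0.14, edgeR adjusted p = 2.22e-06). For znf576.2 the log2 fold-change was -1.47 (SE 0.07). The fall of znf367, from 27.0, 21.6 and 28.3 CPM to 16.4, 15.6 and 13.7 CPM (log2 fold-change -0.78, SE 0.12), lost its call with library totals (-0.54). So did that of znf668 (log2 fold-change -0.63 with TMM, -0.39 with totals), which was also lost without control replicate 1 at 6hpf (-0.52) or control replicate 2 at 12hpf (-0.57).

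**Figure D3:**
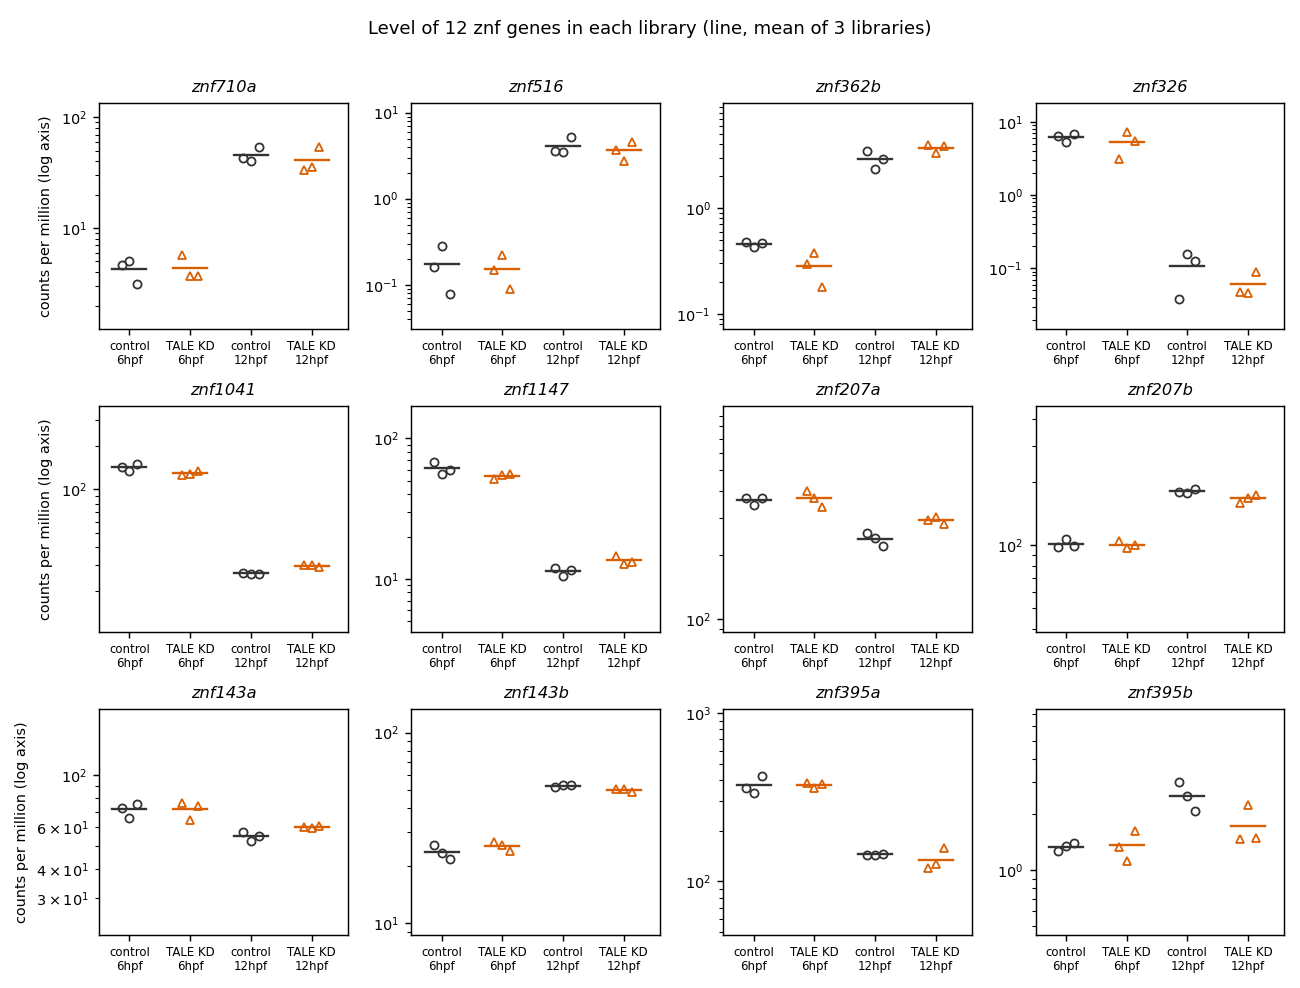
Level in CPM on a log axis of 12 znf genes in each of the 12 libraries, by group (circles, control; triangles, TALE KD; lines, means of 3). The upper row holds the large rises of znf710a, znf516 and znf362b and the fall of znf326, the middle row 2 falling genes numbered over 900 and the copies znf207a (lower at 12hpf) and znf207b (higher), and the lower row the copies of znf143 and znf395.

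TALE KD embryos were collected at the same hours, and their znf genes were tested in the same way in a contrast of the 6 TALE KD libraries. The fit over 12 libraries, with its filter and its estimate of spread, was the same one. Of 71 genes 40 were called, 14 higher and 26 lower, against 56.6% of all genes (31.5% higher, 25.1% lower). Of the genes that fell in control embryos 25 fell here too (89.3% of 28, and 96.2% of 26), and of those that rose 11 rose here (73.3% of 15, and 78.6% of 14). None changed in opposite directions. The median log2 fold-change was -0.11 with TMM and 0.12 with library totals, so its sign depended on the scaling. Among genes numbered 900 or over 14 fell and 1 rose (znf1024), with a median of -0.96. Genes past the limits in one condition and not in the other were znf1003, znf1124, znf207a, znf341, znf395b, znf574 and znf703 in control (of which znf1003, znf1124 and znf207a were not called there with library totals), and znf76, znf1024, znf148 and znf384l in TALE KD. Whether their changes differed was asked of the difference itself, given after the TALE KD comparisons.

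At 6hpf, when the embryo is gastrulating, no effect of TALE KD on a znf gene passed the test. By edgeR 0 of 67 genes were called, against 0.0392% of all 10202 genes. Both DESeq2 (0.274% of all genes) and a fit that blocked on the replicate number (0.225%) also called 0. At an unadjusted p under 0.05 there was 1 gene, znf1001, against 5.66% of all genes. Its control libraries held 53.0, 51.4 and 52.4 CPM and its TALE KD libraries 44.2, 45.2 and 45.8 CPM, without overlap, a log2 fold-change of -0.20 (SE 0.08, edgeR adjusted p = 0.807). The 95% interval of the difference lay within 1.5-fold for 56 of the 67 genes, so larger effects on these were outside the interval, and for 11 it reached beyond.

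The largest log2 differences at 6hpf in either direction belonged to low genes. They were 0.38 for znf236 (SE 0.25), at 1.75 to 2.25 CPM in control and 2.15 to 3.06 CPM in TALE KD embryos, and -0.22 for znf326 (SE 0.28), at 5.36 to 6.81 and 3.12 to 7.24 CPM. The groups overlapped for both. The median over the 67 genes was 0.02, against 0.01 over all genes. Of the genes numbered 900 or over 15 of 20 lay below 0, against 4818 of 10202 over all genes, with a median of -0.06. Without control replicate 1 their median was -0.03 and 8 of 20 lay above 0. Most of these genes hold shared reads, so their values may not be independent. Beside znf1001 the lowest were znf1147 (-0.17, SE 0.10) and znf1015 (-0.16, SE 0.20), neither of which passed the test. The highest of the list, znf971, znf1014 and znf1024, did not pass it either.

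At 12hpf, early in segmentation, again 0 of 71 znf genes were called by edgeR, against 1.55% of all 11640 genes, and 0 by DESeq2 (2.8% of all genes) or with the block (4.09%). At an unadjusted p under 0.05 there were 21 (29.6%, against 27.1% of all genes), and with the block 34 (47.9%, against 37.8%). In the list numbered 900 or over these counts were 6 and 13 of 20. The 95% interval lay within 1.5-fold for 56 genes and reached beyond for 15.

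By adjusted p alone, at any fold, 1 znf gene passed at 12hpf (3.02% of all genes did). This was znf292b, one of the fish copies of ZNF292, a large zinc finger gene linked to intellectual disability in humans. Control embryos held 117.0, 119 and 109 CPM of it, and TALE KD embryos 143, 150.4 and 157 CPM. The groups were well apart, and the log2 fold-change was 0.37 (SE 0.05, edgeR adjusted p = 0.00616). Its copy znf292a was next in line, with 127.5, 129 and 118 CPM in the control libraries and 161, 160.4 and 149.6 CPM in those of TALE KD, with a log2 fold-change of 0.32 (SE 0.05, edgeR adjusted p = 0.0103). In both copies every TALE KD library lay above every control library.

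How many passed by adjusted p alone depended on the fit. When the fit blocked on replicate number there were 10, against 13.7% of all genes: znf292a, znf292b, znf207a, znf644a, znf384l, znf750, znf1124 and znf1077, higher in TALE KD, and znf574 and znf367, lower. With DESeq2 there were 5 (8.07% of all genes). Without replicate 3 of both groups, the libraries that stood apart, there were 19, or 26.8% against 24.2% of all genes. Leaving out 1 library gave 0 to 4: 4 when TALE KD replicate 3 was dropped (5.71%, against 8.46% of all genes), 1 when control replicate 3 was (1.41% against 2.15%), and 0 for each of the rest (0.171% to 0.41% of all genes).

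Among the genes past adjusted p with the block, znf207a had control levels of 253, 239.6 and 219.5 CPM and TALE KD levels of 293, 302 and 279.8 CPM (log2 fold-change 0.29, SE 0.06, edgeR adjusted p = 0.0213 without the block). For znf384l the levels were 11.0, 11.4 and 12.6 CPM and 14.9, 14.6 and 16.5 CPM (log2 fold-change 0.38, SE 0.09, edgeR adjusted p = 0.0355). For znf644a they were 52.0, 54.6 and 49.9 CPM and 65.7, 61.3 and 60.9 CPM (log2 fold-change 0.25, SE 0.06, edgeR adjusted p = 0.0282). In these 3 genes every TALE KD library lay above every control library.

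In the opposite direction znf574 had control levels of 28.5, 28.9 and 23.4 CPM and TALE KD levels of 19.9, 19.9 and 20.0 CPM (log2 fold-change -0.44, SE 0.09, edgeR adjusted p = 0.019), and znf367 at 16.4, 15.6 and 13.7 and at 11.6, 12.2 and 10.7 CPM (log2 fold-change -0.42, SE 0.10, edgeR adjusted p = 0.0303). Neither overlapped. The control libraries at 12hpf serve both this comparison and the stage comparison, so the values are set side by side only: the log2 fold-change from 6hpf to 12hpf in control was 0.86 for znf574 and -0.78 for znf367. The epidermal gene znf750 had control levels of 31.9, 31.4 and 28.9 CPM and TALE KD levels of 40.5, 39.3 and 33.1 CPM (log2 fold-change 0.28, SE 0.09, edgeR adjusted p = 0.0807).

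In 27 of 71 znf genes all 3 TALE KD libraries at 12hpf lay above all 3 control libraries, and in 7 all lay below. Over all genes 16.3% lay wholly above and 16.3% wholly below. At 6hpf the counts were 4 above and 6 below of 67, against 4.5% and 6.57% of all genes. Of the 27, 12 were among the 17 broadly expressed transcription and chromatin factors and 9 among the 20 genes numbered 900 or over. In the latter list 0 lay wholly below. Of its 20 genes, 17 had fewer than 6 whole values, so reads shared between genes may leave its values not independent. The median log2 fold-change was 0.20, against -0.0033 over all genes. It was 0.137 without control replicate 3 and 0.265 without control replicate 1. Of its 20 values 18 lay above 0, against 5741 of 11640 over all genes, yet 0 were called. The largest were znf1077 (0.37, SE 0.12), whose control libraries held 10.7, 11.5 and 14.6 CPM and its TALE KD libraries 15.5, 15.4 and 17.0 CPM, znf1124 (0.28, SE 0.09) and znf1059 (0.27, SE 0.10). Those below 0 were znf989 and znf1001, at -0.12 and -0.03. The summed level of the list was 378 to 401 CPM in control and 416 to 469 CPM in TALE KD embryos.

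**Figure D4:**
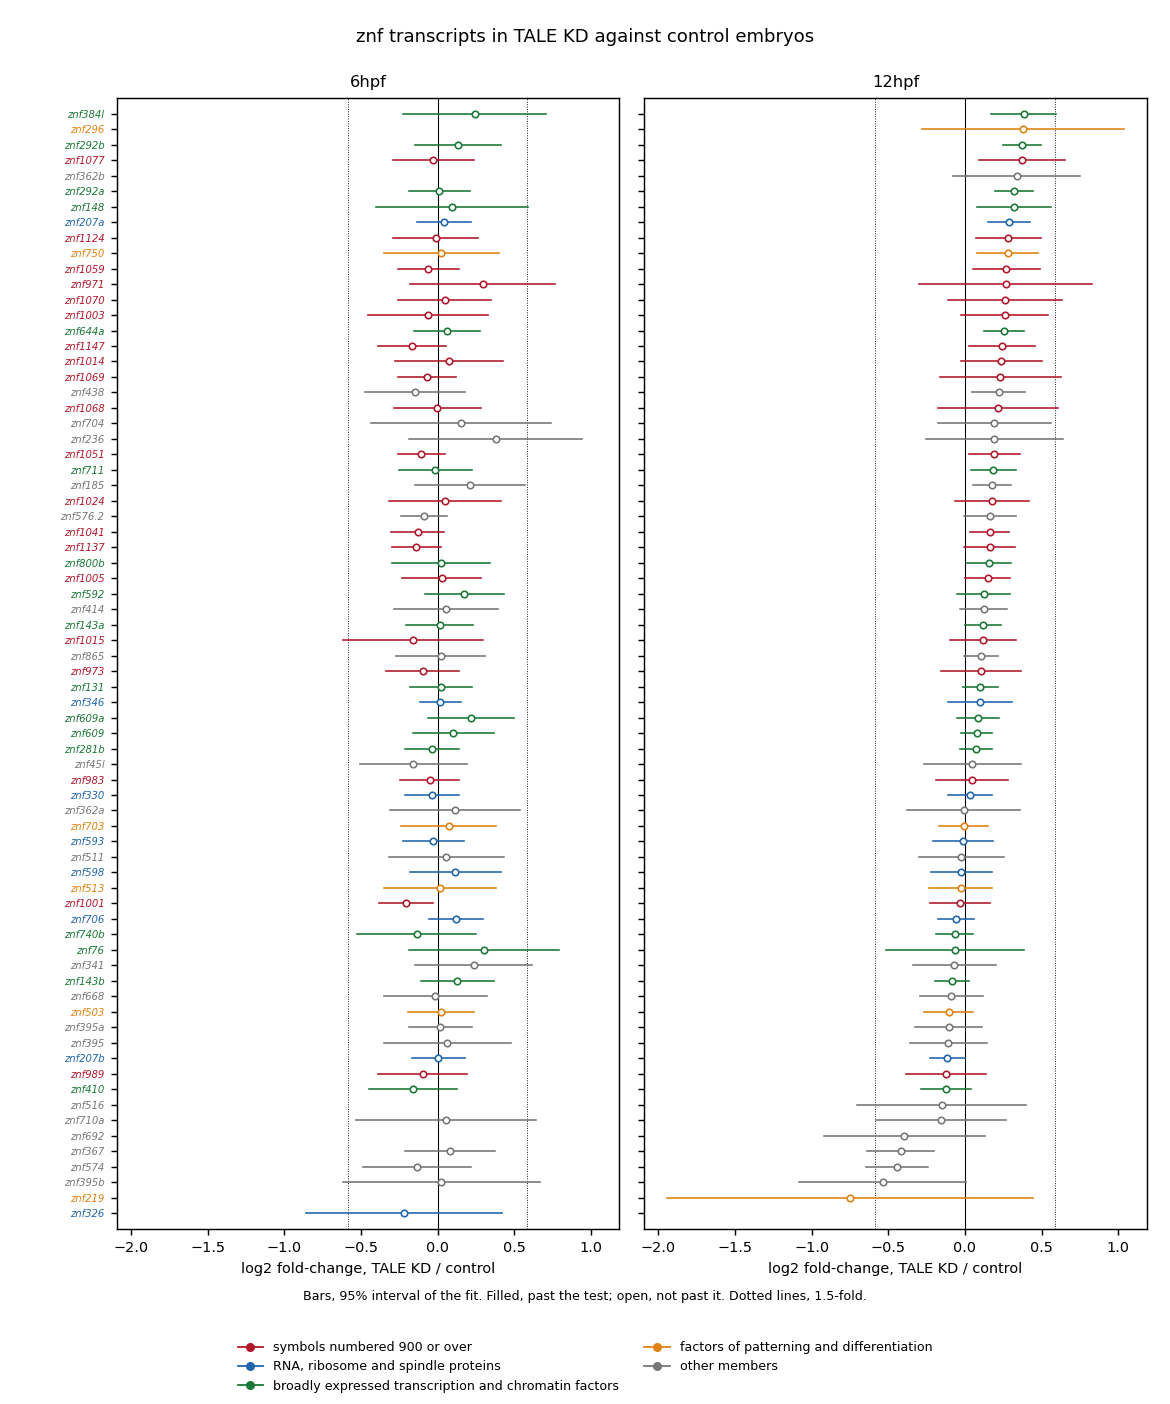
Log2 fold-change of TALE KD over control (horizontal axis) at 6hpf (left, 67 znf genes) and 12hpf (right, 71), sorted by the value at 12hpf and coloured by list; bars are 95% intervals of the edgeR fit and dotted lines mark 1.5-fold. All points are open, since none passed the adjusted p and fold limits. At 12hpf 18 of the 20 red points lie to the right of 0, against 5741 of 11640 over all genes. The red points may not be independent, as most of these genes hold shared reads.

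Whether the effect of TALE KD differed between the stages was tested as an interaction over the 12 libraries. By edgeR 0 of 71 znf genes passed an adjusted p of 0.01, against 0.0349% of all genes, and 0 did by DESeq2 (0.559% of all genes) or with the block (0.323%). At an unadjusted p under 0.05 there were 11 (15.5%, against 8.67% of all genes), of which 6 were numbered 900 or over. The lowest p belonged to znf1041, which in TALE KD embryos stood at 126.1, 127.9 and 133.8 CPM at 6hpf, below every control library, and at 30.0, 30.3 and 29.1 CPM at 12hpf, above every control library. Its log2 difference of effects was 0.31 (SE 0.09, edgeR adjusted p = 0.268) and did not pass. The median difference was 0.26 over the genes numbered 900 or over and 0.01 over the other znf genes, and the interval reached beyond 1.5-fold for 31 of the 71.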

How the data were processed

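RNA-seq was made from 12 pools of whole zebrafish embryos with a stranded poly(A) kit. The authors mapped filtered reads to DanRer10 transcripts and estimated gene abundance by RSEM 1.2.28, and the deposited values are estimated counts per gene, without normalization: the tables are named for TPM, but their totals differ between libraries. The columns of the 12hpf table carry no stage and were mapped by the stage of the table. The 0 per-sample columns of no sample needed no exclusion.

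Estimated counts were rounded. Genes averaging 10 counts or more across a fit's libraries were tested with glmQLFTest (edgeR 4.0.16, R 4.3.3), TMM factors and Benjamini-Hochberg adjustment over all genes tested; DESeq2 1.42.0, with limma 3.58.1 loaded by edgeR, gave the alternative. TALE KD was tested within each stage, the stage change and the interaction over 12 libraries. SE and 95% intervals were derived from the log2 fold-change and F statistic of the fit and are approximate. The procedure was checked on simulated counts.

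Same-numbered control and TALE KD libraries deviated together from their group means (r 0.322, 0.234 and 0.345 at 6hpf, 0.294, 0.315 and 0.542 at 12hpf), so the replicate numbers pair the libraries within a stage, a pairing found in the data and not stated in the labels. At 12hpf replicates 1 and 2 also correlated across numbers (0.249 and 0.231). Across stages the numbers did not pair (-0.0786 to 0.00106). The fits were kept without the block, so the SE and intervals given ignore this pairing within a stage. For TALE KD at 6hpf the median SE of the znf genes was 0.128 without the block and 0.0898 with it. At 12hpf it was 0.0891 and 0.0685. The study left out 1 replicate at 12hpf that it does not name; all were kept here. No libraries were so alike as to be one.

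The members and lists were chosen with earlier results of these data known. Named were all members of the 3 role lists, members called for TALE KD or the interaction, the 10 largest rises and falls in control, the 6 highest levels, and of the list numbered 900 or over the 3 largest TALE KD changes each way; other names were chosen after their values were seen. Symbols or accessions matched RefSeq (GRCz12tu) for 72 of 75. Protein and promoter sequences were not analysed here, and 1 symbol of the pattern is not reported here.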

Additional observations from a re-analysis of the deposited data

How the results depend on the processing

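The counts of znf genes called for TALE KD (0 at 6hpf, 0 at 12hpf) and for the interaction (0) were the same with DESeq2, the replicate block, library totals and no filter on low counts, and without each library in turn. In control embryos the count called from 6hpf to 12hpf was 40 to 43 under the other fits and 38 to 46 without 1 library. The fit with the replicate block adds no test of this count, because the replicate numbers did not pair across stages. Without 1 library 11 to 17 were higher and 27 to 29 lower. The split was 12 higher and 28 lower with DESeq2, and with library totals it moved to 21 higher and 22 lower. The count at 12hpf by adjusted p alone, a measure chosen after seeing the data, moved most: 1 as fitted, 10 with the replicate block, 5 with DESeq2, 2 each with library totals, DESeq2 size factors and no filter, 0 in one fit over 12 libraries, 19 without replicate 3 of both groups (2788 of all 11529 genes), and 0 to 4 without 1 library (20 to 975 of all genes). The rises to 4 and 19 came from leaving out TALE KD replicate 3 and replicate 3 of both groups. The count stayed at 1 without control replicate 3 and was 0 without any replicate 1 or 2. Leaving out a library also leaves fewer samples, and the cause was not tested. At an unadjusted p under 0.05 the block moved the znf counts from 21 to 34 at 12hpf and from 11 to 17 for the interaction. The median for genes numbered 900 or over was -0.96 with library totals, -1.24 to -1.13 without 1 library, and 0.02 for the 3 genes with mostly whole values. At 6hpf the log2 difference of znf1015 ran from -0.35 to 0.024 without 1 library (above 0 without control replicate 1) and that of znf326 from -0.52 to 0.062 (above 0 without TALE KD replicate 1). Of the single-gene values recomputed, 737 kept direction and side of the limits, 27 lost their call, 9 gained one and 2 reversed. Depth limits genes under 10 counts per library, among them 4 of the 75.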
